A study of Homo sapiens with 24 samples.

Results

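The nuclear-encoded respiratory chain genes make the protein subunits of mitochondrial complexes I to IV, and cytochrome c, that are transcribed in the nucleus and imported into the mitochondrion. They were read here in RT112 cells, a long-cultured line from a human bladder carcinoma. Each RT112 line made a short hairpin RNA when given doxycycline. It targeted EGFP in the control line, and FGFR3, a receptor tyrosine kinase, in the lines 2-4, 4-1 and 6-16. All groups grew in medium with 1% serum for 48 h, without doxycycline or with it at 1 µg/ml, and each of the 8 labelled groups had 3 arrays. The list held 39 genes, and 35 of them were measured among 19775 genes, each by its probe set with the highest mean over 24 arrays. Complex I had 18 measured members, complex II 3, complex III 5 and complex IV 8, and CYCS encodes cytochrome c. NDUFA4, NDUFS8, SDHB and UQCRFS1 were not analysed here. No member passed the test in any comparison of the labelled groups. In 6 of the 24 arrays, spread over 5 labelled groups, nearly all members read low together, and CYCS was lower there than in each of the other 18 arrays.

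As background, electrons from food molecules enter the chain at complex I, which oxidises NADH, or at complex II, which oxidises succinate and is also an enzyme of the TCA cycle. Ubiquinone carries them to complex III, cytochrome c carries them on to complex IV, and complex IV hands them to oxygen. Complexes I, III and IV pump protons, and ATP synthase uses the proton gradient to make ATP. Complexes I, III and IV also hold subunits encoded by mitochondrial DNA, so their assembly draws on both genomes. Many nuclear genes of the chain are known targets of the transcription factors NRF1, GABP (an ETS factor), YY1 and the ERR receptors, with coactivators of the PGC family.

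The sequences before the start of 4 members are shown, picked by the differences described below. CYCS had the largest difference between arrays, UQCRC1 and SDHA the largest in complexes III and II over all arrays pooled, and COX8A was the only member without overlap between all arrays on the 2 sides of the TACC3 level described below. They come from the RefSeq promoter table of build GRCh38.p14 and run 5′ to 3′ on the gene's strand up to the base before its start. They are chr7:25125261-25125510 on the minus strand for CYCS, chr3:48609647-48609896 on the minus strand for UQCRC1, chr5:218154-218319 on the plus strand for SDHA and chr11:63974370-63974619 on the plus strand for COX8A. The SDHA stretch stops at 166 bases because the neighbouring gene CCDC127 begins there. NDUFS6, with the largest difference in complex I over all arrays pooled, is not shown because the neighbouring gene MRPL36 covers its stretch. Capitals mark matches to 5 motifs searched on both strands, spelled out below.
CYCS: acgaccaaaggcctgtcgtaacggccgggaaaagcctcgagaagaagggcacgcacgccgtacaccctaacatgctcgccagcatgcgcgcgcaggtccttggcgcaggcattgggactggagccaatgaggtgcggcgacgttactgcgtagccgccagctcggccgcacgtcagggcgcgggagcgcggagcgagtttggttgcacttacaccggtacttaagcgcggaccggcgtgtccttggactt
UQCRC1: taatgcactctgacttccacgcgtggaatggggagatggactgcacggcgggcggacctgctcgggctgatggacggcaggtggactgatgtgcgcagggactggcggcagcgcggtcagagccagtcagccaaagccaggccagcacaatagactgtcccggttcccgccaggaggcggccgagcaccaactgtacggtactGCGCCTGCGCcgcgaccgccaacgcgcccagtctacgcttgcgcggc
SDHA: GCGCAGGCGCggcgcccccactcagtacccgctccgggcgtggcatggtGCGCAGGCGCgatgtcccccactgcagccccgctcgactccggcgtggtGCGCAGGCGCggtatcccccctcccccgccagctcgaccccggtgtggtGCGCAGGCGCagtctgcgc
COX8A: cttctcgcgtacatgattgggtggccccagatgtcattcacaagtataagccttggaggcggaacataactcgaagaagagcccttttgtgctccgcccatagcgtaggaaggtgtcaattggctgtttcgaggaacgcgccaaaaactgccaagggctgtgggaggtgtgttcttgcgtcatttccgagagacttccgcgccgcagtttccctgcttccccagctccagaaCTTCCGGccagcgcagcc

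The NRF1 motif (GCGCA, any base, GCGC) matched UQCRC1 at base -47 and SDHA at bases -166, -117, -68 and -19 before the gene start, and the ETS motif CCGGAAG matched COX8A on the other strand at base -18.  Over windows of 300 bases (250 before and 50 after the start), 29 of the 35 measured members had an entry among 27305 promoters. NRF1 matched 5 of the 29 members (17.2%) against 6.28% of all promoters, and ETS matched 10 (34.5%) against 10.7%. The YY1 motif AAGATGGC matched 4 members (13.8%) against 3.03%, the ERR motif AAGGTCA 4 (13.8%) against 3.97%, and the CRE motif TGACGTCA 1 (3.45%) against 1.98%. A match says only that the letters are there. The ETS motif can share its last letters with a YY1 or an ERR match.

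The members with a match did not all differ more between arrays than those without. In the FGFR3-low and GAS1-high arrays described below, the median difference of the 5 members with the NRF1 motif was -0.12 and -0.40, beside -0.25 and -0.26 for the rest. The 4 members with the YY1 motif, UQCRC1, NDUFS4, NDUFA9 and NDUFS7, had medians of -0.36 and -0.46 beside -0.18 and -0.24. The 10 members with the ETS motif differed less than the rest, at -0.21 and -0.23 beside -0.25 and -0.35. The 4 members with the ERR motif differed more, at -0.325 and -0.365 beside -0.21 and -0.27. NDUFA10, the 1 member with the CRE motif, differed less, at -0.17 and -0.18 beside -0.245 and -0.28. CYCS, with the largest difference, had none of the 5 motifs in its printed stretch.

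The labels do not say whether the arrays of a group came from separate cultures, so the p-values measure only the spread between these arrays, which may be technical. Bulk arrays cannot tell fewer cells of a kind from less RNA per cell. The study asked which genes change with doxycycline in the FGFR3 hairpin lines and not in the EGFP line.

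The targeted gene did not clearly bear out the labels in any FGFR3 hairpin line. On its brighter probe set, the log2 level of FGFR3 differed with doxycycline by 0.15 in the line labelled 2-4, by -0.24 in 4-1 and by 0.42 in 6-16 (SE 0.31), and the smallest of limma's Benjamini-Hochberg adjusted p-values was 0.7601. On a dimmer probe set it differed by 0.17 in 2-4, by 0.29 in 4-1 and by -0.83 in 6-16, which read 10.07 ± 1.02 with and 10.90 ± 0.37 without doxycycline (SD, n = 3). The ranges with and without doxycycline overlapped in each line on both probe sets, and the 2 probe sets took opposite signs in 4-1 and 6-16. So "labelled" is written throughout, and no direction below is ascribed to the loss of FGFR3. The arrays also stood apart in a way that cut across the labels. In 6 arrays ARMCX3 was near background, at no more than 4.93 against at least 9.45 in the rest. A further 6 had GAS1 at 8.52 or more, against at most 6.51. Of the remaining 12 arrays, 6 had the brighter FGFR3 probe set at 11.43 or less and 6, here called unmarked, at 11.92 or more. The name FGFR3-low refers to that probe set only: on the dimmer one, 3 of these arrays had the highest values of all 24, 11.03 to 11.20. These sets were drawn from the data, are not groups of the study, and only order the description.

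The rule also split the arrays by the log2 level of TACC3, the gene fused to FGFR3 in RT112, at 11.6. The 9 arrays below it read 10.49 to 11.43 and the 15 above it read 11.82 to 12.62. The highest TACC3, 12.50 to 12.62, was on the 3 FGFR3-low arrays above the level. The dimmer FGFR3 probe set followed the same split, at 8.71 to 9.88 below and 10.34 to 11.20 above. Arrays below the level occurred in 7 of the 8 labelled groups: 2 each in EGFP without doxycycline and 4-1 without doxycycline, 1 in each of the other groups but 6-16 without doxycycline, which had 0. The ARMCX3-off, FGFR3-low and GAS1-high sets each had 3 arrays below and 3 above, and all 6 unmarked arrays were above. The split rests on measured values, so the levels on its sides are a description, with no test.

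**Figure D1:**
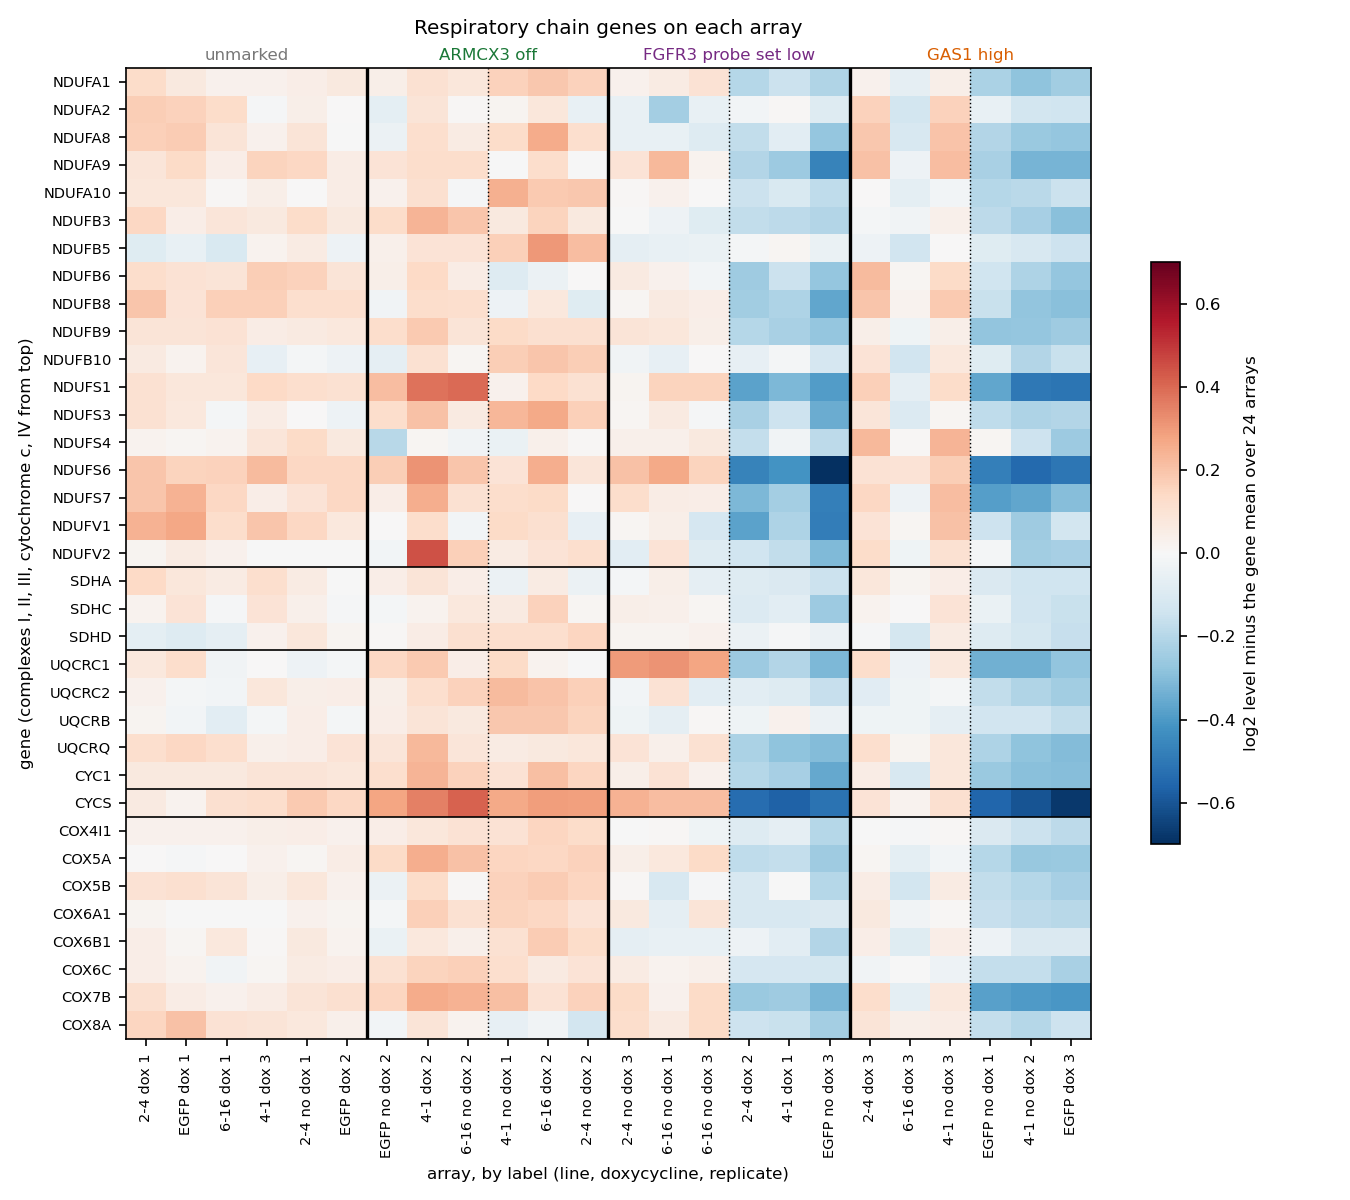
Log2 level of each member on each array minus its mean over 24 arrays, with genes in rows by complex and arrays in columns by set. Dotted lines separate arrays above the TACC3 level (left) from those below it (right). The 3 right columns of the FGFR3-low and GAS1-high sets are blue in nearly every row, and those of the ARMCX3-off set are not.

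The members moved as a block on single arrays. On the 3 FGFR3-low arrays below the level, the median member was -0.25, -0.17 and -0.15 away from its own mean, and 35, 35 and 31 of 35 members lay under their means. On the 3 GAS1-high arrays below the level the medians were -0.24, -0.17 and -0.22, with 35, 34 and 35 members under their means. The 3 ARMCX3-off arrays below the level read 0.12, 0.12 and 0.15, with 8, 6 and 2 members under. The 15 arrays above the level lay between -0.031 and 0.13. So the low block held 6 of the 9 arrays below the level and no array above it.

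Within each set the members were read side by side below and above the level. Among the FGFR3-low arrays 32 of 35 members had the lower median below the level, with a median difference of -0.21, and in 27 members all 3 arrays below were lower than all 3 above. Over all genes 20.9% were lower without overlap in that set. Among the GAS1-high arrays all 35 measured members had the lower median, with a median difference of -0.24, and 28 were lower without overlap, against 19.2% of all genes. Among the ARMCX3-off arrays 17 members were lower and 18 higher, with a median difference of 0.013. There 4 were lower without overlap, against 14.2% of all genes, and 10 were higher without overlap, against 21.8%. Without array 2 of EGFP without doxycycline the count lower in that set was 11 and the median -0.030, and without array 2 of 6-16 with doxycycline the count was 9. With the level set 0.2 lower, which moves 1 FGFR3-low and 1 GAS1-high array to the upper side, 11 members were lower without overlap in the FGFR3-low set and 27 in the GAS1-high set. The share of all genes was not counted with an array left out or with the lower level. So these counts cannot be set against the shares given for 3 arrays on each side.

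Most members are bright probe sets, and the shares were larger among bright genes. Among the 4046 genes with a mean log2 level of at least 10, the share lower without overlap was 32.0% in the FGFR3-low set, 41.5% in the GAS1-high set and 24.5% in the ARMCX3-off set. The share higher without overlap was 39.1%, 17.8% and 34.3%, so the 10 of 35 members higher in the ARMCX3-off set lay below the share of bright genes. The share of all genes with the lower median was 53.9%, 47.1% and 47.1% in those sets. In 24 members both the FGFR3-low and the GAS1-high arrays were lower without overlap, against 11.8% of all genes. In the same number of members those 6 arrays lay below all 15 arrays above the level, against 6.33% of all genes. Pooling the 9 arrays below against the 15 above, 34 of 35 members had the lower median, with a median difference of -0.23, but 1 was lower without overlap, against 3.09% of all genes, and 0 were higher, against 2.9%. In 4 members all 3 sets were lower without overlap, NDUFB6, NDUFS1, UQCRQ and COX8A, against 6.67% of all genes. With each array centred on its median, 2 members were lower without overlap in the ARMCX3-off set, so not all of the 4 kept this.

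**Figure D2:**
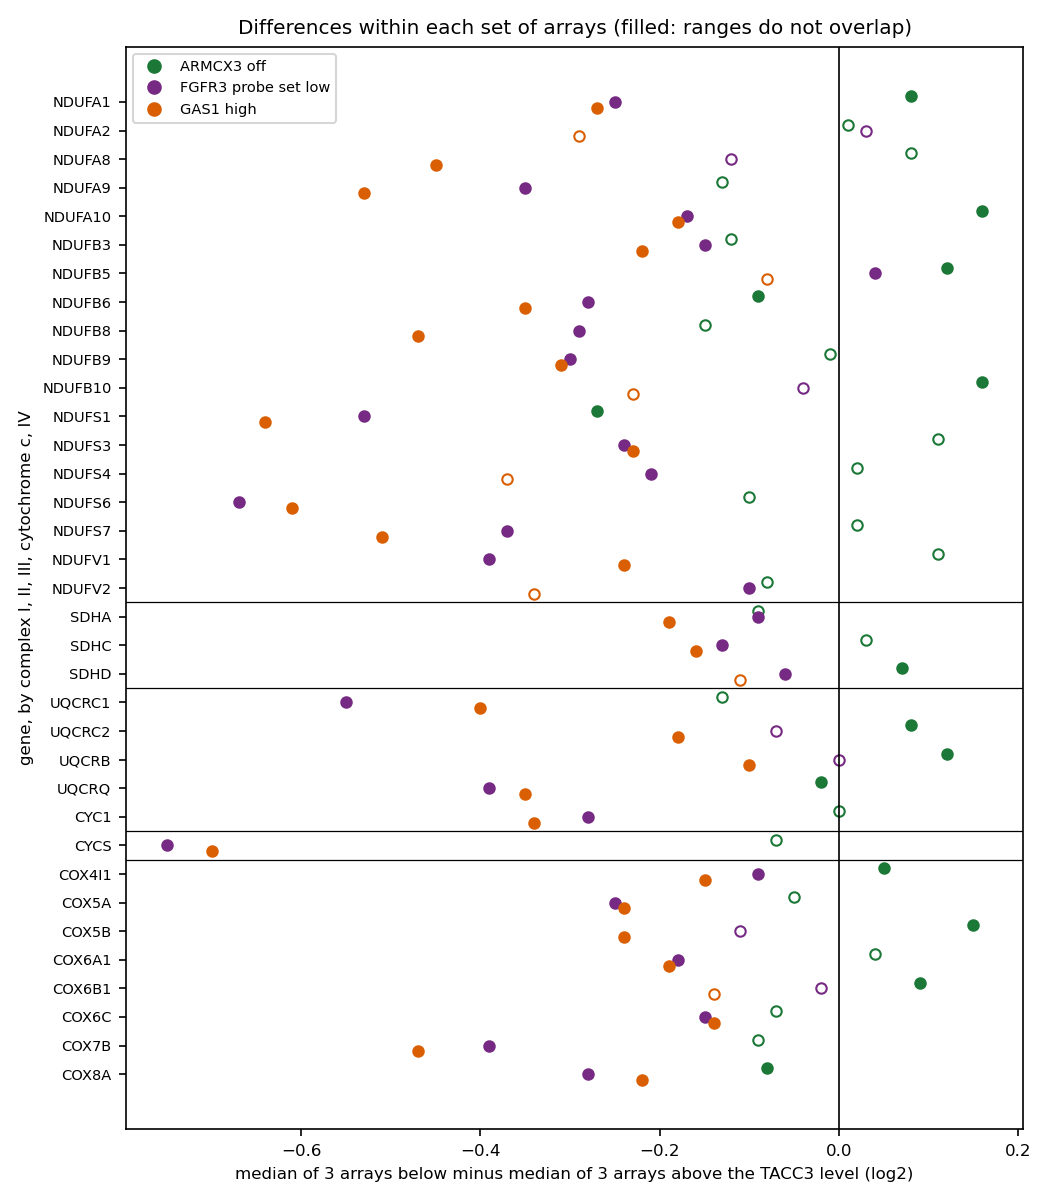
Difference in log2 level for each member, the median of the 3 arrays below the TACC3 level minus the median of the 3 above, within each set of arrays. Filled points are members whose ranges do not overlap. CYCS lies farthest left in the FGFR3-low (-0.75) and GAS1-high (-0.70) sets, and the ARMCX3-off points lie on both sides of 0.

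Cytochrome c, which carries electrons from complex III to complex IV and starts apoptosis when it leaves the mitochondrion, had the widest range of all members. CYCS read 12.06, 12.09 and 12.11 on the FGFR3-low arrays below the level, against 12.84, 12.84 and 12.87 above it. On the GAS1-high arrays it read 11.95, 12.02 and 12.07 below, against 12.65, 12.72 and 12.74 above. These 6 arrays below the level were lower than all other arrays. The ARMCX3-off arrays below the level read 12.89, 12.91 and 12.92, beside 12.90, 12.98 and 13.04 above, and these overlapped. The unmarked arrays ran from 12.65 through a median of 12.75 to 12.81. The difference of medians was -0.75, -0.70 and -0.07 in the 3 sets. CYCS has 2 dimmer probe sets, with mean log2 levels of 7.71 and 6.53, and they did not follow in every set: the brighter of them differed by 0.13 in the FGFR3-low set and by -0.17 in the GAS1-high set.

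In complex I, NDUFS6, an accessory subunit needed late in the assembly of the NADH-oxidising arm, differed most over all arrays pooled and in the FGFR3-low set, and NDUFS1 in the other sets. NDUFS6 read 10.58, 10.82 and 10.87 on the FGFR3-low arrays below the level and 11.44, 11.49 and 11.55 above it. It read 10.74, 10.78 and 10.81 on the GAS1-high arrays below and 11.38, 11.39 and 11.46 above. Neither set overlapped, and the differences of medians were -0.67 and -0.61. In the ARMCX3-off set it read 11.37, 11.38 and 11.54 below and 11.46, 11.48 and 11.60 above, which overlapped. The unmarked arrays ran from 11.43 through 11.44 to 11.51.

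NDUFB5, an accessory subunit of the membrane arm, differed least in complex I over all arrays pooled and in the GAS1-high set. NDUFB5 read 12.41, 12.44 and 12.47 on the FGFR3-low arrays below the level and 12.39, 12.40 and 12.41 above it, and 12.31, 12.34 and 12.37 on the GAS1-high arrays below and 12.32, 12.42 and 12.46 above. On the ARMCX3-off arrays it read 12.62, 12.67 and 12.76 below and 12.49, 12.55 and 12.55 above, and the unmarked arrays ran from 12.35 through 12.41 to 12.51. It was higher without overlap below the level in the ARMCX3-off set and, by 0.04, in the FGFR3-low set, the 1 member that was so in the latter (24.1% of all genes). In the FGFR3-low set the ranges met at 12.41 as rounded. With each array centred on its median, 0 members were higher without overlap there.

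The other 16 members of complex I included NDUFS1, the largest iron-sulfur subunit, at -0.53, -0.64 and -0.27 in the FGFR3-low, GAS1-high and ARMCX3-off sets, without overlap in each. NDUFS7, which holds the last iron-sulfur cluster before ubiquinone, differed by -0.37, -0.51 and 0.02 in those sets. NDUFV1, which binds the flavin that takes electrons from NADH, differed by -0.39, -0.24 and 0.11. In all, 14 of 18 members of complex I were lower without overlap among the FGFR3-low arrays, against 20.9% of all genes. Among the GAS1-high arrays 13 were, against 19.2%. The median differences were -0.25 and -0.33. In the ARMCX3-off set 2 were lower, NDUFB6 and NDUFS1, against 14.2% of all genes. There 4 were higher, NDUFA1, NDUFA10, NDUFB5 and NDUFB10, against 21.8% of all genes and 34.3% of bright genes. The 4 of 18 lay near the share of all genes and below that of bright genes. NDUFA1 and NDUFA10, both accessory subunits, were lower without overlap in the other sets, at -0.25 and -0.17 in the FGFR3-low set and -0.27 and -0.18 in the GAS1-high set, so their direction differed between sets. NDUFA9, NDUFB3, NDUFB8, NDUFB9 and NDUFS3 were lower without overlap in those 2 sets, by -0.15 (NDUFB3) to -0.35 (NDUFA9) in the first and by -0.22 (NDUFB3) to -0.53 (NDUFA9) in the second, and overlapped in the ARMCX3-off set. NDUFS4 and NDUFV2 were lower without overlap in the FGFR3-low set, NDUFA8 in the GAS1-high set, and NDUFA2 overlapped in all 3.

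Complex II had the smallest median differences of the 4 complexes in the FGFR3-low and GAS1-high sets. SDHA, the flavoprotein that oxidises succinate, read 10.78, 10.83 and 10.84 on the FGFR3-low arrays below the level and 10.87, 10.92 and 10.97 above it. It read 10.79, 10.79 and 10.83 on the GAS1-high arrays below and 10.95, 10.98 and 11.01 above. Both sets had no overlap, with differences of -0.09 and -0.19. On the ARMCX3-off arrays SDHA read 10.89, 10.89 and 10.99 below and 10.98, 10.98 and 11.02 above, and on the unmarked arrays 10.93 through 11.00 to 11.07.

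SDHD and SDHC anchor complex II in the membrane. SDHD read 12.41, 12.41 and 12.44 on the FGFR3-low arrays below the level against 12.47, 12.47 and 12.48 above it, and 12.29, 12.33 and 12.36 on the GAS1-high arrays below against 12.33, 12.44 and 12.51 above. On the ARMCX3-off arrays it read 12.57, 12.57 and 12.60 below against 12.46, 12.50 and 12.56 above, and the unmarked arrays ran from 12.36 through 12.43 to 12.53. SDHD was thus lower in the first set, overlapping in the second and higher in the third. SDHC differed by -0.13, -0.16 and 0.03 in those sets, without overlap in the first and second. SDHA, SDHC and COX4I1 were read on probe sets of the kind that can also bind related transcripts. All 3 measured members of complex II were lower without overlap among the FGFR3-low arrays (20.9% of all genes), with a median difference of -0.087.

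In complex III, UQCRC1, a core subunit on the matrix side, differed most. UQCRC1 read 10.50, 10.56 and 10.61 on the FGFR3-low arrays below the level and 11.09, 11.11 and 11.13 above it. It read 10.48, 10.48 and 10.54 on the GAS1-high arrays below and 10.78, 10.89 and 10.94 above. Its ARMCX3-off values were 10.81, 10.84 and 10.95 below and 10.86, 10.96 and 11.00 above, and the unmarked arrays ran from 10.78 through 10.81 to 10.94. The 3 FGFR3-low arrays above the level had the highest UQCRC1 of all 24 arrays, so the difference of -0.55 in that set was larger than the -0.40 in the GAS1-high set. UQCRB, a small subunit near the ubiquinone site, read 13.15, 13.16 and 13.22 on the FGFR3-low arrays below and 13.13, 13.16 and 13.20 above. It read 13.02, 13.06 and 13.06 on the GAS1-high arrays below and 13.13, 13.16 and 13.16 above, 13.35, 13.38 and 13.38 on the ARMCX3-off arrays below and 13.24, 13.26 and 13.28 above, and 13.12 through 13.18 to 13.24 on the unmarked arrays. UQCRB was lower without overlap in the GAS1-high set and higher in the ARMCX3-off set. CYC1, the subunit that passes electrons to cytochrome c, differed by -0.28 and -0.34 in the FGFR3-low and GAS1-high sets, without overlap. All 5 measured members of complex III were lower without overlap among the GAS1-high arrays (19.2% of all genes), and 3 among the FGFR3-low arrays (20.9%). UQCRQ, a small subunit of complex III, was lower without overlap in all 3 sets, at -0.39, -0.35 and -0.02, and UQCRC2, the other core subunit, was lower in the GAS1-high set and higher in the ARMCX3-off set. The next brightest probe set of UQCRC2 overlapped in the ARMCX3-off set.

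In complex IV, COX7B, a small subunit needed for assembly, differed most. COX7B read 12.26, 12.32 and 12.33 on the FGFR3-low arrays below the level and 12.61, 12.71 and 12.71 above it. It read 12.17, 12.18 and 12.20 on the GAS1-high arrays below and 12.51, 12.65 and 12.70 above. Those differences were -0.39 and -0.47, with no overlap. On the ARMCX3-off arrays it read 12.68, 12.74 and 12.79 below and 12.73, 12.82 and 12.84 above, which overlapped, and on the unmarked arrays 12.61 through 12.65 to 12.69.

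COX6B1, which faces the intermembrane space near the cytochrome c site, differed least over all arrays pooled and in the FGFR3-low set. COX6B1 read 12.42, 12.55 and 12.59 on the FGFR3-low arrays below the level and 12.56, 12.57 and 12.57 above it, and 12.52, 12.52 and 12.59 on the GAS1-high arrays below and 12.54, 12.67 and 12.67 above. It overlapped in both sets. On the ARMCX3-off arrays it was higher, at 12.73, 12.75 and 12.80 below and 12.58, 12.66 and 12.70 above, and the unmarked arrays ran from 12.63 through 12.66 to 12.70.

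COX8A, the widely expressed form of the smallest subunit, is named after its values were seen. COX8A read 12.97, 13.05 and 13.06 on the FGFR3-low arrays below the level, 13.01, 13.04 and 13.06 on the GAS1-high arrays below and 13.08, 13.15 and 13.18 on the ARMCX3-off arrays below. Above the level these sets read 13.27, 13.33 and 13.34, then 13.25, 13.26 and 13.30, then 13.19, 13.23 and 13.30, and the unmarked arrays ran from 13.24 through 13.30 to 13.41. It was the only member with all 9 arrays below the level under all 15 above it, by a gap between 13.18 and 13.19 that closed when each array was centred on its median. In complex IV 6 of 8 members were lower without overlap among the FGFR3-low arrays (20.9% of all genes) and 7 among the GAS1-high arrays (19.2%). COX4I1 and COX5B, which pack around the catalytic core, were higher without overlap among the ARMCX3-off arrays, by 0.05 and 0.15, and lower among the GAS1-high arrays, by -0.15 and -0.24. Other bright probe sets of both genes overlapped among the ARMCX3-off arrays. COX5A, COX6A1 and COX6C differed by -0.25, -0.18 and -0.15 in the FGFR3-low set and by -0.24, -0.19 and -0.14 in the GAS1-high set, without overlap. Over all complexes, 19 members had further, dimmer probe sets, 40 in number, of which 27 had the lower median below the level in the FGFR3-low set, 27 in the GAS1-high set and 16 in the ARMCX3-off set.

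**Figure D3:**
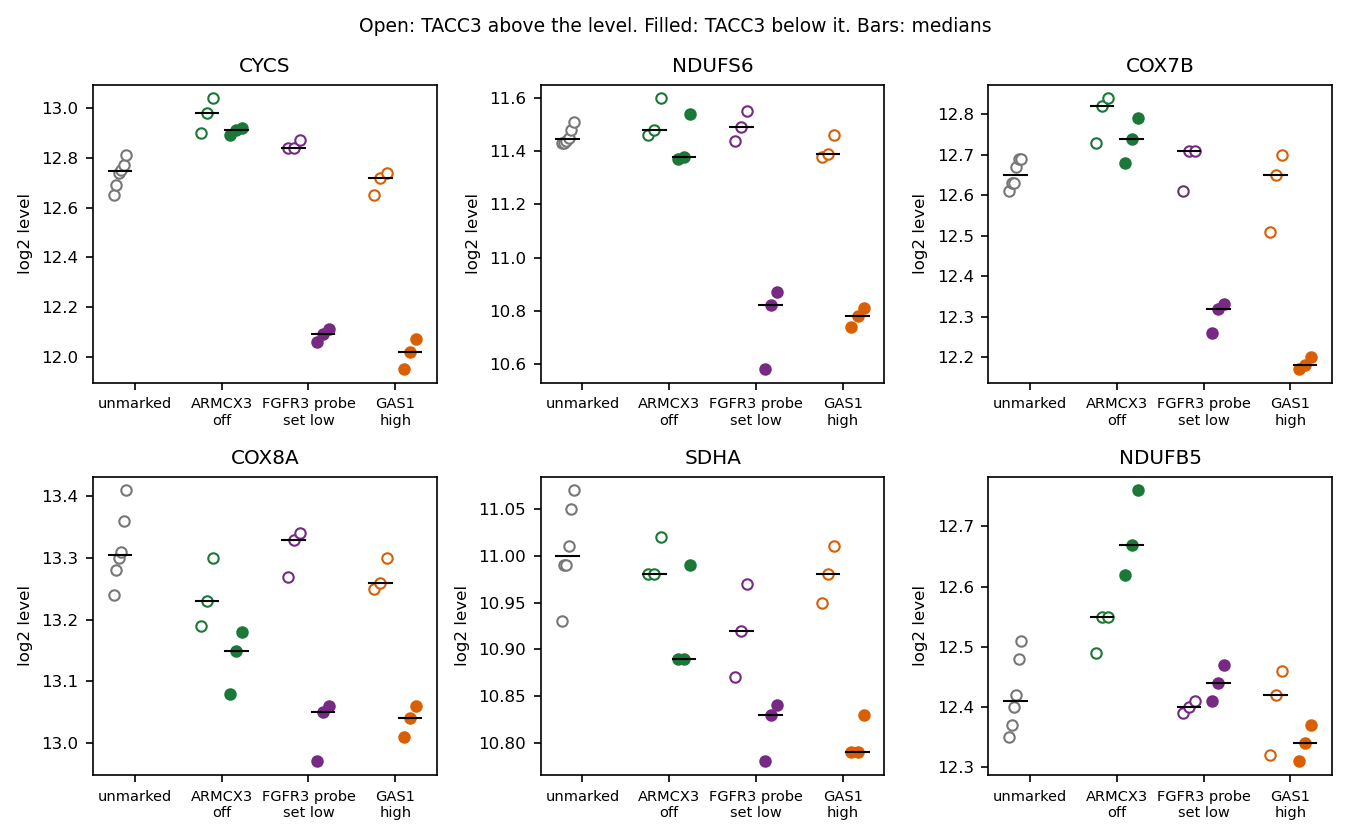
Log2 level of 6 members on every array, by set, with open points above and filled points below the TACC3 level and bars at the medians. The filled FGFR3-low and GAS1-high points of CYCS, NDUFS6 and COX7B lie below every other point, while those of NDUFB5 do not. Each axis has its own range and does not start at 0.

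No gene was called in the labelled comparisons. In the line labelled EGFP the members' log2 levels differed with doxycycline by a median of 0.087, with 32 of 35 above 0, while the median over all genes was 0.023. The line labelled 2-4 gave -0.076 with 30 of 35 below 0 (all genes -0.0052), 4-1 gave 0.036 with 32 above 0 (all genes -0.0078), and 6-16 gave -0.0039 with 18 below 0 (all genes 0.028). Neither any of the 35 members nor any other of the 19775 genes passed limma's adjusted p of 0.05 in these 4 lines, so 0.0% of all genes were called. At an unadjusted p under 0.05 the lines gave 505, 487, 223 and 1539 genes, with 0 members in each. The smallest adjusted p-values among members were 0.975, 0.999, 0.9999 and 0.7507, the last for UQCRC1 in 6-16, which read 10.80 ± 0.03 (SD, n = 3) with and 11.02 ± 0.15 without doxycycline. The F-test in limma for differences among the 3 FGFR3 hairpin lines also called 0 genes, with 636 at an unadjusted p under 0.05 and 0 of them members.

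These medians turned with single arrays: 2-4 gave 0.0040 without its array 2 with doxycycline, 4-1 gave -0.066 without its array 2 without doxycycline and -0.021 without its array 2 with doxycycline, and 6-16 gave 0.033 without its array 3 with doxycycline and 0.024 without its array 2 without doxycycline. With array weights limma called 1291 genes in 6-16, among them 1 member, NDUFA2, at 0.24 with an adjusted p of 0.0498. Without the arrays below the TACC3 level the medians were -0.00034 in EGFP, 0.022 in 2-4, 0.056 in 4-1 and -0.044 in 6-16.

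The mean change of the 3 FGFR3 hairpin lines minus that of the EGFP line was below 0 in 31 of 35 members, with a median of -0.089 against -0.017 over all genes. No gene was called (0.0%), and 428 genes but 0 members had an unadjusted p under 0.05. NDUFS7 gave -0.31 (SE 0.20), CYCS -0.25 (SE 0.31), UQCRC1 -0.21 (SE 0.18), COX7B -0.16 (SE 0.20) and SDHC -0.097 (SE 0.093), each with an adjusted p of 0.9999 in limma. CYCS shows the spread behind these errors: it read 12.36 ± 0.47 without and 12.46 ± 0.45 with doxycycline in the EGFP line, 12.86 ± 0.05 and 12.50 ± 0.35 in 2-4, 12.55 ± 0.47 and 12.60 ± 0.48 in 4-1, and 12.90 ± 0.12 and 12.77 ± 0.14 in 6-16 (SD, n = 3). The groups with 1 or 2 arrays of the low block had the wide SDs. Without the 9 arrays below the TACC3 level, a choice made after seeing the data that leaves some groups with 1 array, the differences of CYCS, UQCRC1 and COX7B were 0.12, 0.0067 and 0.051, all with the opposite sign, and the members' median was -0.0052.

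Without doxycycline, the FGFR3 hairpin lines exceeded the EGFP line in all 35 measured members, with a median of 0.15 against -0.0036 over all genes. This too passed for no gene (0.0%). NDUFS6 at 0.42 (SE 0.20) and NDUFS7 at 0.32 (SE 0.14) were the 2 members with an unadjusted p under 0.05, against 576 genes in all, and both had an adjusted p of 0.9937 in limma. Of the 3 EGFP arrays without doxycycline, 2 belonged to the low block, and of the 9 FGFR3 hairpin arrays 1 did, in 4-1. Without the arrays below the TACC3 level the median was 0.013. All 12 arrays without doxycycline enter both this comparison and the preceding one, with opposite sign.

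**Figure D4:**
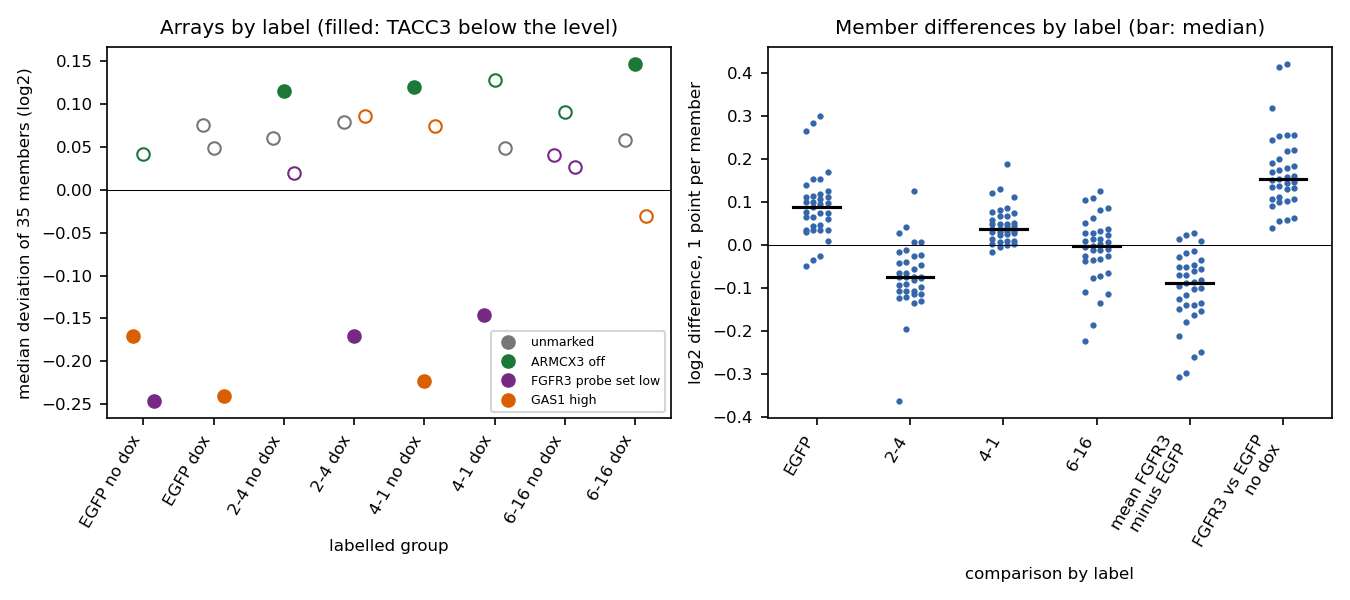
Left, the median deviation of the 35 members from their own means on each array, by labelled group, coloured by set and filled where TACC3 is below the level. Right, the log2 difference of each member in the 6 labelled comparisons, with bars at the medians. The low block of 6 filled points lies between -0.25 and -0.15 and is spread over the groups EGFP without and with doxycycline, 2-4 with, and 4-1 without and with doxycycline.

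The members spread as widely within labelled groups as over all arrays. Pooled within the 8 groups, the SD of the median member was 0.155, beside 0.146 for the 24 arrays without grouping, and 33 of 35 members had the wider SD within groups, as did 12350 of 19775 genes. Among arrays of the same set and side the members' median SD was 0.0535. For all genes these 3 medians were 0.126, 0.125 and 0.091. CYCS had an SD of 0.36 within labelled groups and 0.048 within set and side, and NDUFS6 0.32 and 0.074. The range over the arrays exceeded 2-fold in these 2 members, at 1.09 for CYCS and 1.01 for NDUFS6 on the log2 scale. SDHA had the narrowest range, 0.29.

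Lists of other genes were read the same way, and over all genes 20.9%, 19.2% and 14.2% were lower without overlap, and 24.1%, 14.2% and 21.8% higher, in the FGFR3-low, GAS1-high and ARMCX3-off sets. ATP synthase, which spends the proton gradient, was lower without overlap in 15 of 18 subunits among the FGFR3-low arrays and in 15 among the GAS1-high arrays, but in 2 among the ARMCX3-off arrays, where 2 were higher. ATP5MC1, a gene for the rotor-ring subunit c, was lower on all 9 arrays below the level (10.28 to 10.72) than on all 15 above it (10.87 to 11.28). The related ATP5MC3 overlapped over all arrays, at 13.12 to 13.49 below and 13.41 to 13.59 above. ATP5MC2 went the other way, by 0.11 over all arrays, 0.14 in the FGFR3-low set and 0.29 in the ARMCX3-off set. The 15 other subunits of complex I had 9, 8 and 1 lower without overlap in those sets, and the 5 other subunits of complexes III and IV had 3, 3 and 0.

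Of 44 assembly factors, 18, 27 and 11 were lower without overlap in the FGFR3-low, GAS1-high and ARMCX3-off sets. Over all genes the shares were 20.9%, 19.2% and 14.2%. The last count lay near the 24.5% of bright genes, but how many of these factors are that bright was not counted. NDUFAF8, an assembly factor of complex I, read 9.63 to 10.04 on the 9 arrays below the level and 10.28 to 10.53 on the 15 above. Of 16 genes for outer membrane channels, import and chaperones, 13, 13 and 9 were lower. TIMM50, a receptor of the inner membrane import machinery, read 8.97 to 9.35 below and 9.49 to 9.94 above. Of 12 TCA cycle enzymes, 8, 11 and 4 were lower without overlap, with IDH3A, which makes NADH from isocitrate, at -0.69, -0.73 and -0.33.

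Among 15 regulators of mitochondrial biogenesis, 8, 9 and 4 were lower without overlap. Of the same genes 2, 0 and 2 were higher, in each set a smaller share than over all genes. PPRC1, a coactivator of the PGC family, read 8.06 to 8.61 on the arrays below the level and 8.74 to 9.12 on those above it, with no overlap. TFAM, which packages and transcribes mitochondrial DNA, differed by -0.29, -0.51 and -0.44 in the FGFR3-low, GAS1-high and ARMCX3-off sets, without overlap in each. Over all arrays pooled, 10 of the 15 regulators had the lower median below the level and 5 the higher, with GABPA highest at 0.12. The highest difference was that of NRF1 in the FGFR3-low set, 0.16, and that of PPARGC1B in the ARMCX3-off set, 0.30.

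The subunits encoded by mitochondrial DNA took other directions than the nuclear members. Of 13 such genes 7 were measured. Among the FGFR3-low arrays 6 of the 7 were higher without overlap below the level, with a median difference of 0.22, and among the GAS1-high arrays 6 had the higher median but all overlapped. Among the ARMCX3-off arrays the direction turned: all 7 measured genes had the lower median, with a median difference of -0.11, and MT-ND6 was lower without overlap. MT-CO3, a core subunit of complex IV, differed by 0.39, 0.15 and -0.07 in the FGFR3-low, GAS1-high and ARMCX3-off sets. MT-ND6, a complex I subunit on the other strand, differed by -0.15, -0.03 and -0.25. The 6 muscle, lung or testis forms of subunits in the list overlapped in the GAS1-high and ARMCX3-off sets. In the FGFR3-low set 4 were lower without overlap, against 20.9% of all genes. Of these, COX7B2 read 5.86 to 6.26 over all arrays, under the array medians of 6.98 to 7.08. COX4I2 was lower by 0.08, with a highest value of 7.77 below the level and a lowest of 7.78 above.

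**Figure D5:**
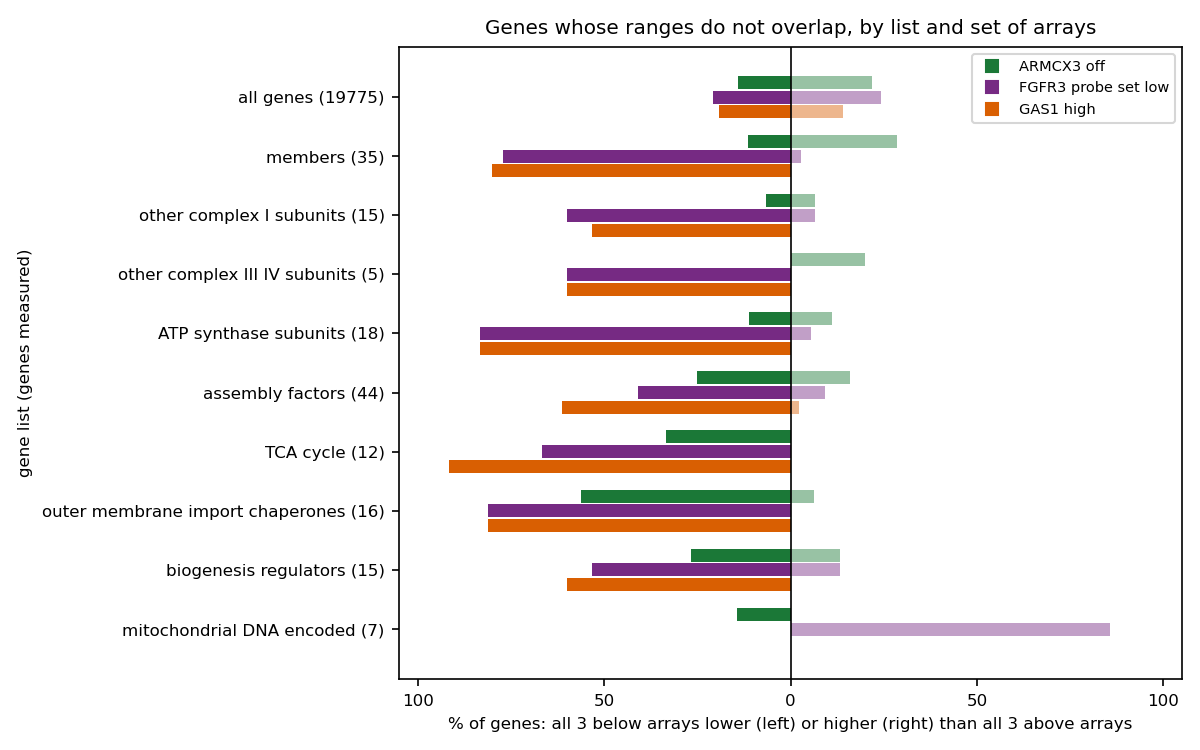
Share of the measured genes of each list for which all 3 arrays below the TACC3 level were lower (left) or higher (right) than all 3 above it, by set of arrays, with all genes at the top. Members and ATP synthase subunits reach the left side in the FGFR3-low and GAS1-high sets (27 and 28 of 35, and 15 of 18 in each), and the mitochondrial DNA list reaches the right side in the FGFR3-low set (6 of 7).

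Markers of cell types and of RNA quality were read on the same arrays. The mean log2 level of 14 urothelial and epithelial markers was 11.80 to 12.13 below the TACC3 level and 11.64 to 11.94 above it. Within each set it was higher below, without overlap. The FGFR3-low set read 11.80 to 11.89 against 11.72 to 11.77. The GAS1-high set read 11.84 to 11.86 against 11.73 to 11.79, and the ARMCX3-off set 12.09 to 12.13 against 11.90 to 11.94. In those sets 5, 6 and 2 markers were lower without overlap and 7 in each were higher. Over all genes 20.9%, 19.2% and 14.2% were lower and 24.1%, 14.2% and 21.8% higher. Over all arrays pooled, 7 of these markers had the lower and 7 the higher median below the level, with a median difference of 0.014. The 2 with the largest differences went opposite ways. UPK1A, a protein of the urothelial surface, was higher on all 9 arrays below (12.08 to 12.97) than on all 15 above (10.01 to 11.36), and KRT5, a basal keratin, was lower without overlap in each of the 3 sets. The means of 10 fibroblast markers (7.89 to 8.05 below, 7.91 to 8.04 above) and of 10 leukocyte markers (6.72 to 6.95 and 6.70 to 6.95) overlapped. The signal of LUM, a fibroblast matrix gene, was 12.84 to 13.56, higher without overlap below the level in each of the 3 sets. The 3′ minus 5′ signal of GAPDH, which grows as RNA degrades, was 0.28 to 0.42 below the level and 0.20 to 0.29 above it, and that of ACTB 0.79 to 1.17 and 0.70 to 0.97. Below the level GAPDH read 0.37 to 0.42 on the ARMCX3-off, 0.35 to 0.38 on the FGFR3-low and 0.28 to 0.33 on the GAS1-high arrays, and ACTB 1.01 to 1.17, 1.00 to 1.06 and 0.79 to 0.95. The FGFR3-low and ARMCX3-off arrays below the level thus exceeded all 15 arrays above it in both measures. The part of RNA quality and of cell state in the members' levels was not tested.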

How the data were processed

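RNA of RT112 cells (3 µg per array) was read on 24 Affymetrix arrays, 3 in each of 8 labelled groups. The authors deposited log2 values made by RMA with the affy package, per the submitters' processing notes; versions and the probe grouping are not given in the sources used here. RMA normalises by quantiles, which removes changes shared by most genes, and levels were not compared between genes.

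Of 54675 probe sets, 41097 had 1 symbol, 1801 several and 11777 none, and 41043 were matched by Entrez ID to RefSeq; each of 19775 genes was read by its brightest probe set. Array medians were 6.98 to 7.08, and no arrays held identical values. The members and lists were chosen with earlier results of these data known. Labelled groups were compared with limma 3.58.1 (R 4.3.3), with 1 coefficient per group, 16 residual degrees of freedom, no low-value filter and Benjamini-Hochberg adjustment over all genes at 0.05; the script was tested on simulated data. The number of arrays limits the precision. Sides of the TACC3 level, and sets of arrays drawn after seeing the data, were described by medians, ranges and counts without overlap, with no test. Named members are, per complex, those with the largest and smallest difference between sides and the largest FGFR3 minus EGFP contrast, and for other lists up to 2 genes with the largest difference. Alternatives were probe set, low-value, centring, eBayes, weighting, replicate, array subset and TACC3 level choices, and leaving out each array.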

Additional observations from a re-analysis of the deposited data

Results flagged for a closer look

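In 7 members all 3 arrays below the TACC3 level were higher than all 3 above in 1 set and lower than all 3 above in another. The share of all genes that did so was not counted, so whether 7 of 35 is many cannot be said. The differences, as medians below minus above on the log2 scale, are given in the order ARMCX3-off, FGFR3-low and GAS1-high, with 3 arrays on each side of each set. None of these differences between sets was tested, and the sides were cut on a measured level. NDUFA1 gave 0.08, -0.25 and -0.27. NDUFA10 gave 0.16, -0.17 and -0.18. In complex II, SDHD gave 0.07, -0.06 and -0.11, the last with overlap. In complex III, UQCRC2 gave 0.08, -0.07 and -0.18, and UQCRB gave 0.12, 0.00 and -0.10, with overlap in the FGFR3-low set for both. In complex IV, COX4I1 gave 0.05, -0.09 and -0.15, and COX5B gave 0.15, -0.11 and -0.24, with overlap in the FGFR3-low set for COX5B. Other bright probe sets did not all follow in the ARMCX3-off set. Those of COX4I1 (0.01), UQCRC2 (0.10) and COX5B (0.14 and 0.12) overlapped there, and that of UQCRB (0.14) was higher without overlap. A narrower pattern was lower without overlap in both the FGFR3-low and GAS1-high sets and higher in the ARMCX3-off set. It held for NDUFA1, NDUFA10 and COX4I1 among the members, and for 0.359% of all genes.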

How the results depend on the processing

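No call in the labelled comparisons changed under most settings. The exceptions were in 6-16, where array weights called 1291 genes and 1 member, the replicate block 1 gene, and only the 6 arrays of the line 1 gene; the cause was not tested. The replicate block changed no other call, and same-numbered arrays had a median correlation of 0.127 (-0.726 to 0.876). With the mean of all probe sets, CYCS gave 0.0487 in the FGFR3 minus EGFP contrast, and the median differences below against above were -0.171 (all arrays), -0.154 (FGFR3-low) and -0.195 (GAS1-high). Without the arrays below the TACC3 level, which assumes that lone arrays vary like the other groups, that contrast was 0.00666 for UQCRC1, 0.117 for CYCS and 0.0506 for COX7B, and the median without doxycycline was 0.0129. With the level 0.2 lower, 0 members were lower without overlap over all arrays, the median was -0.171, and the FGFR3-low set had 11 lower and 0 higher; 0.2 higher left the same arrays on each side. Centred arrays gave 0 lower over all arrays, 2 lower in the ARMCX3-off set, 0 higher in the FGFR3-low set and a median of -0.342 in the GAS1-high set. The share of all genes without overlap was not counted under these settings.

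Leaving out each array in turn, genes and members called stayed at 0 in all labelled comparisons. Members' medians ranged from 0.0229 to 0.183 (EGFP), -0.114 to 0.004 (2-4), -0.0655 to 0.127 (4-1), -0.044 to 0.0333 (6-16), -0.183 to -0.0284 (FGFR3 minus EGFP) and 0.101 to 0.218 (without doxycycline). Of the sides, all arrays gave 1 to 2 members lower without overlap and medians of -0.245 to -0.203. The ARMCX3-off set gave 4 to 11 lower, 10 to 12 higher and -0.0302 to 0.0304. The FGFR3-low set gave 27 to 30 lower, 1 to 2 higher and -0.22 to -0.183, and the GAS1-high set 28 to 35 lower and -0.28 to -0.221. UQCRB over all arrays ranged from -0.0219 to 0.0109. The share of all genes without overlap was not counted with an array left out, so the counts without overlap have no share beside them.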
